A study of Ovis aries with 24 samples.

Results

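The proteasome genes were examined in gene counts from preterm lambs, in liver and in periventricular white matter (PVWM), which lines the lateral ventricles of the brain. Members were all rows of the count tables whose symbol began with PSM, a letter from A to G and a digit, which gave 49 of 27716 rows. PSMC3IP, a meiotic recombination factor named for binding PSMC3, met the rule without being a proteasome gene. It was given a role of its own, but counts and medians of members include it unless said otherwise. Without it 48 members remain. The budesonide group was ventilated and received budesonide, a synthetic glucocorticoid, at 0.25 mg/kg, given into the trachea with 2.5 mL/kg of poractant alfa, a surfactant from pig lung. The surfactant group was ventilated and received the surfactant at 2.5 mL/kg alone. The control lambs were unventilated and received neither agent. Each group had 4 lambs per tissue and 1 library per lamb and tissue; of 13 lambs, 11 were sampled for liver and PVWM alike. Unventilated lambs were 127 or 128 days of gestation, and ventilated lambs were 126 days except animal 007 of the surfactant group and animal 054 of the budesonide group, labelled male and 127 days. Age and ventilation were therefore almost the same split, which limits every comparison with unventilated lambs.

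The proteasome is the large protease that degrades proteins tagged with ubiquitin. Its barrel-shaped 20S core has outer rings of alpha subunits (PSMA) and inner rings of beta subunits (PSMB), of which PSMB5, PSMB6 and PSMB7 carry the constitutive active sites. A 19S cap unfolds the substrate with a ring of ATPases (PSMC) and recognises and deubiquitinates it with a set of other subunits (PSMD). Under interferon signalling, the inducible subunits PSMB8, PSMB9 and PSMB10 replace the constitutive active sites and form the immunoproteasome, which favours peptides for MHC class I presentation. PSME proteins are alternative activators, PSMF1 (PI31) is a proteasome-binding regulator, and PSMG proteins with PSMD5, PSMD9 and PSMD10 are assembly chaperones that leave the finished particle. In liver, as in other tissues, the transcription factor NFE2L1 (NRF1) is known to raise subunit genes together when proteasome capacity falls short.

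Library totals were 16.1 to 23.2 M counts in liver and 14.9 to 17.5 M counts in PVWM (M, mega), and the members held 0.124 to 0.179% of liver counts and 0.217 to 0.243% of PVWM counts. The liver share differed by group, at 0.168 to 0.174% in budesonide, 0.124 to 0.142% in surfactant and 0.153 to 0.179% in unventilated livers. Levels are given as CPM (the count per M counts of the library, after scaling) and changes as log2 fold changes with their standard error (SE). The factors by which scaling multiplied the library totals also differed by group. They were 0.954 to 0.994 in budesonide, 0.839 to 1.02 in surfactant and 1.04 to 1.19 in unventilated livers. CPM and changes in liver therefore depend on this scaling, and raw shares rank the groups differently. A gene was called where edgeR's quasi-likelihood test gave an adjusted p under 0.05, by the Benjamini-Hochberg method over every gene of the fit. CPM are not corrected for gene length, so no level is compared between genes. Low-count filtering kept 47 members in liver and 48 in PVWM, or 46 and 47 without PSMC3IP. PSMB11, the thymus-type beta subunit, had at most 3 counts in any liver library and 1 in any PVWM library and was not tested. PSMA8, the testis-type alpha subunit, had 4 to 10 counts in liver libraries, where it was not tested, and 6 to 18 in PVWM libraries. The liver of animal 007 lay between the groups on the first principal component, which held 54.6% of the liver variance: it scored 12.9, against -80.4 to -35.4 for the other ventilated and 87.4 to 99.7 for the unventilated livers. Marker genes matched the labelled tissues, with hepatocyte markers summing to 175236 to 261726 CPM in liver libraries and 107 to 263 CPM in PVWM libraries.

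In the liver, calls among the proteasome genes went in both directions for surfactant against unventilated and mostly upward for budesonide. For surfactant against unventilated, 7 members rose and 6 fell of 47 tested, where 41.1% of all 16824 genes were called, 21.6% higher and 19.5% lower. For budesonide against unventilated, 14 members rose and 2 fell, where 47.0% of all genes were called, 23.3% higher and 23.7% lower. For budesonide against surfactant, 6 members rose and PSMB9 fell, where 11.9% of all genes were called, 4.01% higher and 7.85% lower. The median log2 change of the tested members was 0.03 for surfactant against unventilated, 0.16 for budesonide against unventilated and 0.21 for budesonide against surfactant, beside -0.02, 0.00 and -0.01 over all genes. Without PSMC3IP the member medians were 0.06, 0.17 and 0.17 in the same order. Among the 31 constitutive 20S and 19S subunits, which assemble in fixed proportions, the log2 changes for surfactant against unventilated ran from -0.54 (PSMC3) to 1.13 (PSMD6), and 4 rose and 3 fell. For budesonide against unventilated 12 of the 31 rose and 1 fell, with 25 positive changes and a median of 0.24, and for budesonide against surfactant 5 rose and 0 fell, with 28 positive changes and a median of 0.24. The 3 liver comparisons share libraries in pairs, so a member called in several of them does not count as separate evidence. Group ranges of CPM did not overlap for 22 of 47 members for budesonide against unventilated, where 48.8% of all genes were apart. They did not overlap for 8 members for surfactant against unventilated (37.4% of all genes) and for 6 for budesonide against surfactant (14.4%). Such separation, given below for single genes, was therefore no more frequent among members than among all genes.

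**Figure D1:**
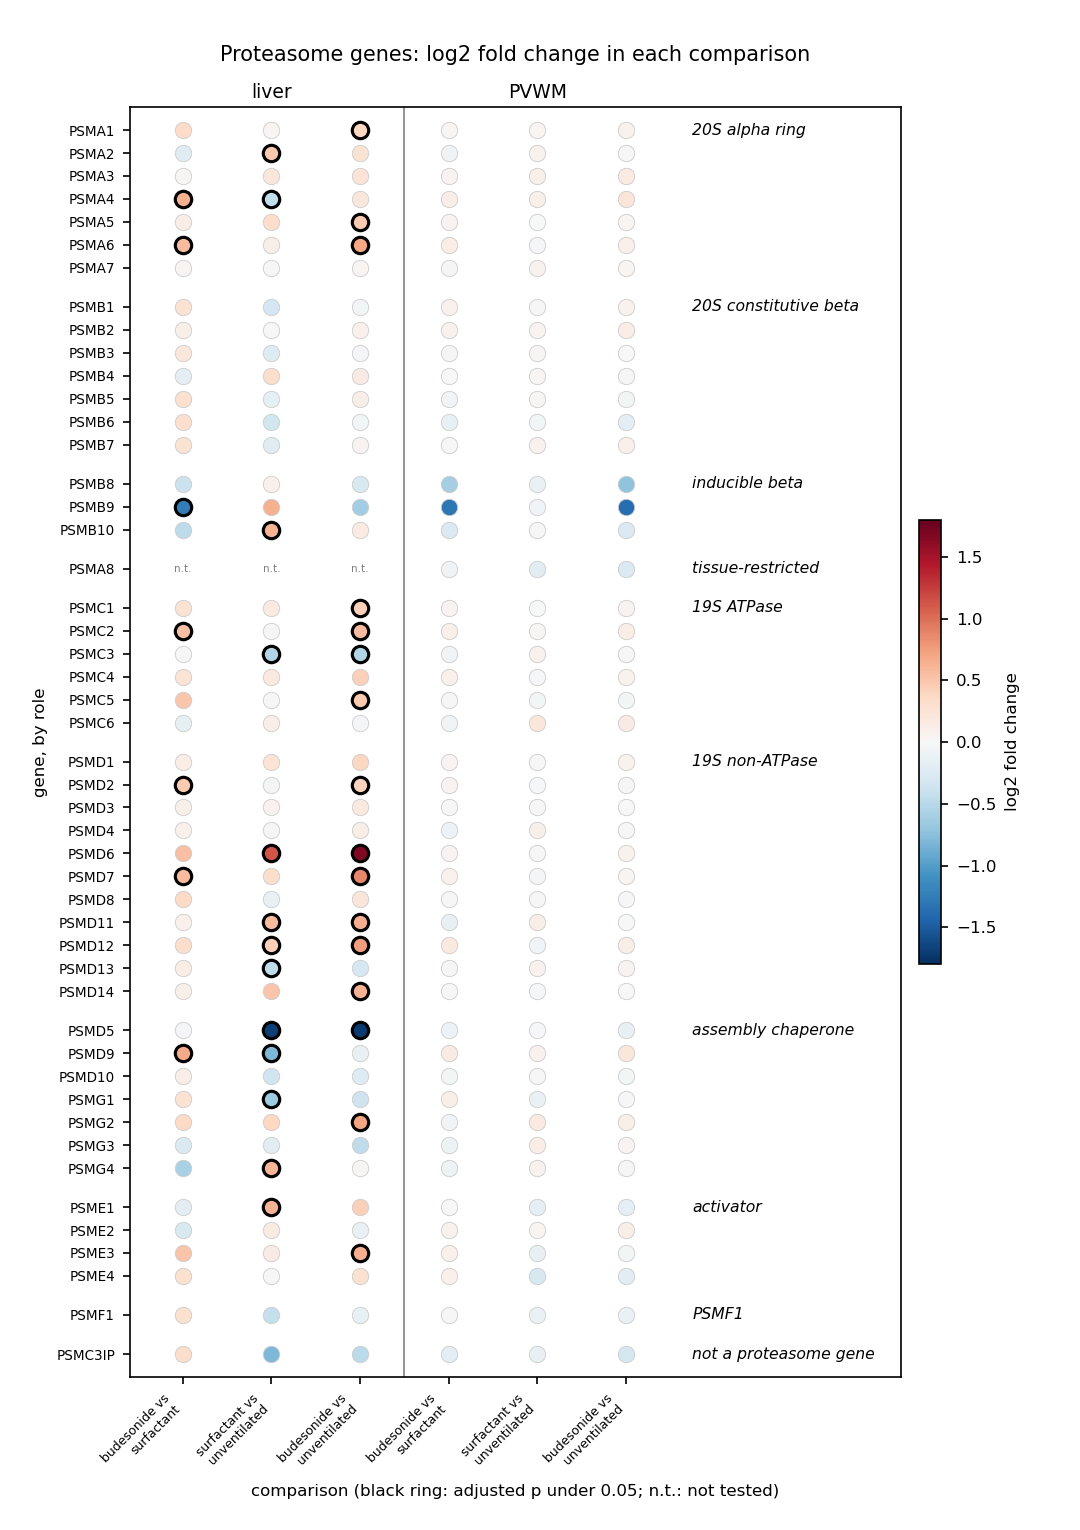
Colour shows the log2 fold change of each tested proteasome gene and PSMC3IP (rows, grouped by role) in the 3 comparisons within liver and the 3 within PVWM (columns); a black ring marks an adjusted p under 0.05 and n.t. a gene not tested. Black rings are present in the liver columns, where members of the same complex take both colours, and absent from the PVWM columns.

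The counts of called members depended on single libraries. For surfactant against unventilated, the 13 calls became 7 without surfactant animal 049, 7 without unventilated animal 057 and 6 without unventilated animal 060, and 18 without surfactant animal 007. For budesonide against unventilated, the 16 calls became 10 without unventilated animal 057 and 10 without unventilated animal 060. For budesonide against surfactant, the 7 calls became 1 without budesonide animal 031, 2 without 048 and 2 without 050, 1 without surfactant animal 032 and 1 without 049, 4 without unventilated animal 057 and 4 without 060, and 11 without surfactant animal 051. A fit of only those 2 groups called PSMD7 alone (adjusted p = 0.0496). Calls that were kept whichever library was left out numbered 6 (PSMC3, PSMD5, PSMD6, PSMD9, PSME1 and PSMG1) for surfactant against unventilated, 10 for budesonide against unventilated and 0 for budesonide against surfactant. With gestational age as a covariate, edgeR called 0 members for surfactant against unventilated, with 6 at an unadjusted p under 0.05, and DESeq2 without age called 14. With age, 1 member, PSMD7, remained for budesonide against unventilated at an adjusted p of 0.0215 in edgeR (range over its 19 alternatives 4.88e-10 to 0.0215).

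Among the constitutive subunits, PSMD6 and PSMD7 of the 19S lid had the largest rises for budesonide against unventilated. PSMD6 (Rpn7), a lid subunit, had 95.1, 86.2, 174 and 52.7 CPM in budesonide livers, 68.3, 76.0, 62.5 and 74.7 CPM in surfactant livers, and 38.1, 31.3, 30.0 and 29.4 CPM in unventilated livers. Every ventilated liver lay above every unventilated one, and the budesonide livers spread over more than the whole surfactant range. PSMD6 rose by a log2 change of 1.66 (SE 0.28, adjusted p = 0.000457) in budesonide livers against unventilated and by 1.13 (SE 0.28, adjusted p = 0.00653) in surfactant livers against unventilated, in edgeR. Its change for budesonide against surfactant was 0.54 (SE 0.27, adjusted p = 0.21) and did not pass. Taking age into the edgeR fit left 1.09 (adjusted p = 0.0813) and 0.61 (adjusted p = 0.329) against unventilated.

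PSMD7 (Rpn8), the lid partner of the deubiquitinase PSMD14, had 84.6, 87.1, 88.9 and 87.8 CPM in budesonide livers, 53.3, 52.3, 62.9 and 67.3 CPM in surfactant livers, and 45.7, 52.7, 50.0 and 40.4 CPM in unventilated livers. The budesonide livers stood above all others and apart from them, and the other groups overlapped. PSMD7 rose by 0.88 (SE 0.13, adjusted p = 0.000196) against unventilated and by 0.56 (SE 0.13, adjusted p = 0.018) against surfactant in edgeR, and the call against surfactant was lost only without surfactant animal 032 among the libraries (adjusted p = 0.0584). Surfactant against unventilated gave 0.32 (SE 0.13, adjusted p = 0.0662).

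PSMD12 (Rpn5) and PSMD11 (Rpn6) are further lid subunits, and PSMD11 also contacts the core. PSMD12 averaged 86.2 ± 6.95 CPM in budesonide livers, 69.1 ± 18.0 CPM in surfactant livers and 51.3 ± 0.774 CPM in unventilated livers (SD, n = 4 each). It rose by 0.75 (SE 0.16, adjusted p = 0.00243) for budesonide against unventilated and by 0.43 (SE 0.16, adjusted p = 0.0489) for surfactant against unventilated in edgeR, the second of which was lost in 11 of 12 fits that left out a library. Surfactant animal 051 was at 96.0 CPM and the other surfactant livers were at 57.7 to 62.8 CPM. PSMD11 rose by 0.66 (adjusted p = 0.00872) and 0.57 (adjusted p = 0.0218) in the same order, and the second call was lost without surfactant animal 049 or 051 or unventilated animal 057 or 060, with an adjusted p of up to 0.0835.

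PSMD14 (Rpn11), the deubiquitinase of the lid, rose by 0.62 for budesonide against unventilated (adjusted p = 0.0409 in edgeR), a call lost in 9 of 12 fits that left out a library, with an adjusted p of up to 0.104. PSMD13 (Rpn9), also a lid subunit, moved the other way: it had 40.1, 35.6, 45.5 and 42.4 CPM in budesonide livers, 47.1, 37.9, 32.6 and 31.7 CPM in surfactant livers and 52.4, 48.8, 52.3 and 51.2 CPM in unventilated livers. All ventilated livers were below all unventilated ones. It fell by 0.46 on the log2 scale (SE 0.15, adjusted p = 0.0251 in edgeR) for surfactant against unventilated, a call lost without unventilated animal 057, 059 or 060 (adjusted p up to 0.0592), and its change for budesonide against unventilated was -0.32 (adjusted p = 0.0862). The remaining lid subunits PSMD3 (Rpn3) and PSMD8 (Rpn12) and the ubiquitin receptor PSMD4 (Rpn10) were not called in any liver comparison, with changes of -0.13 to 0.36 on the log2 scale.

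In the base of the cap, PSMD2 (Rpn1), a large scaffold that docks ubiquitin receptors, averaged 105 ± 5.30 CPM in budesonide livers, 75.9 ± 12.2 CPM in surfactant livers and 78.9 ± 3.52 CPM in unventilated livers. All 4 budesonide livers exceeded all other livers. It rose by 0.47 against surfactant (adjusted p = 0.0405 in edgeR) and by 0.41 against unventilated (adjusted p = 0.0229). The call against surfactant was lost in 8 of 12 fits that left out a library. The call against unventilated was lost without budesonide animal 031 or unventilated animal 057 or 060 (adjusted p up to 0.0646). PSMD1 (Rpn2), the other large scaffold, was not called, with 0.38 (SE 0.17, adjusted p = 0.0867) for budesonide against unventilated.

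The ATPases that form 1 ring split in direction. PSMC3 (Rpt5) had 29.9, 30.2, 28.1 and 33.1 CPM in budesonide livers, 33.0, 26.3, 32.2 and 29.5 CPM in surfactant livers, and 41.5, 40.4, 54.2 and 39.8 CPM in unventilated livers. The ventilated groups overlapped each other and lay wholly below the unventilated one. PSMC3 fell by 0.54 on the log2 scale (SE 0.14 in both) against unventilated, with an adjusted p of 0.00734 for budesonide and 0.00878 for surfactant in edgeR.

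PSMC2 (Rpt1) averaged 42.2 ± 2.86 CPM in budesonide livers, 28.8 ± 6.26 CPM in surfactant livers and 28.5 ± 1.71 CPM in unventilated livers. It rose by 0.57 (SE 0.15, adjusted p = 0.00866 in edgeR) for budesonide against unventilated and by 0.55 (SE 0.15, adjusted p = 0.0359) for budesonide against surfactant. The second call was lost in 8 of 12 fits that left out a library, with an adjusted p of up to 0.0951. PSMC1 (Rpt2) rose by 0.43 (adjusted p = 0.0147) and PSMC5 (Rpt6) by 0.48 (adjusted p = 0.027) for budesonide against unventilated. The PSMC5 call was lost in 5 of 12 such fits, with an adjusted p of up to 0.0822. PSMC4 and PSMC6, the other ATPases of the ring, were not called in liver.

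**Figure D2:**
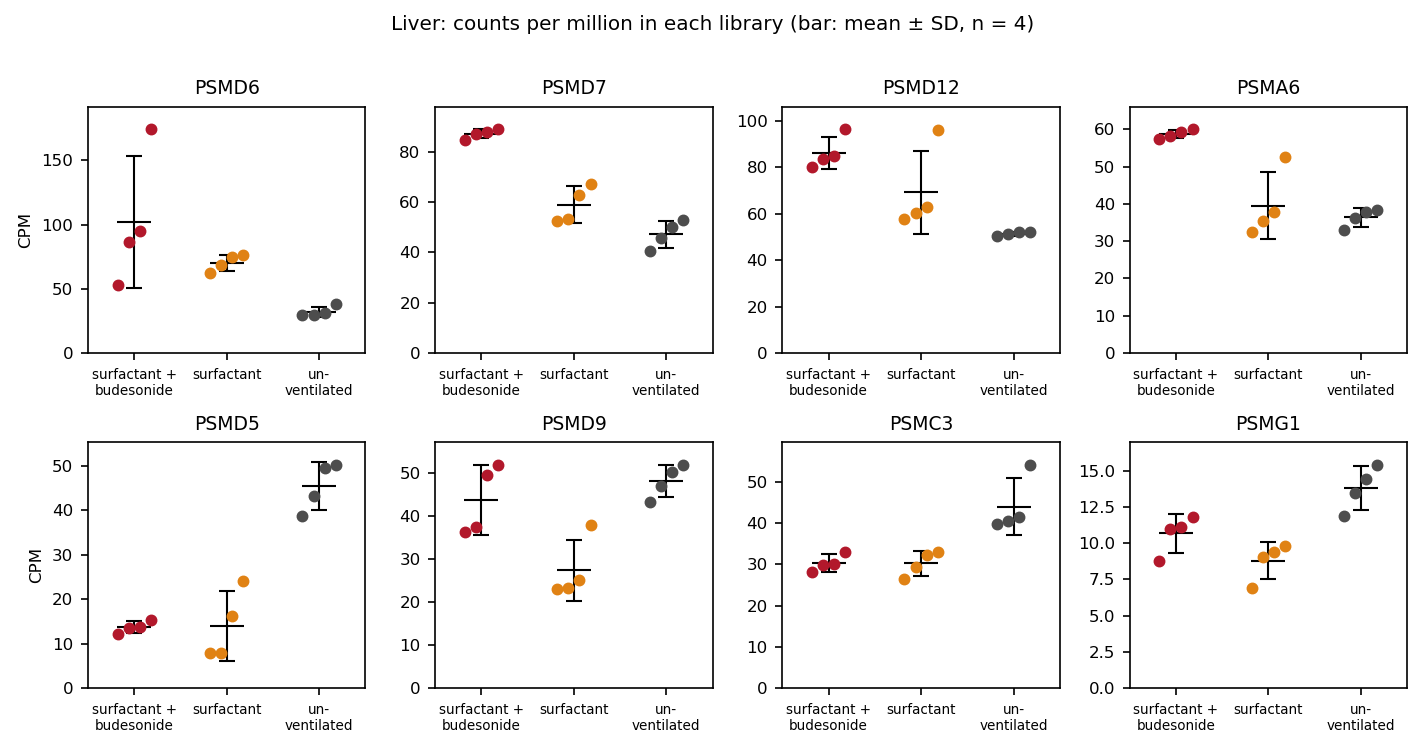
Each panel shows the CPM (vertical axis, from 0) of 1 gene in the 12 liver libraries, as points by group, with the mean and SD of 4 animals as bars. PSMD6, PSMD7, PSMD12 and PSMA6 (top) have their highest group mean in budesonide livers, and PSMD5, PSMD9, PSMC3 and PSMG1 (bottom) have theirs in unventilated livers.

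In the outer ring of the core, PSMA6 had 60.0, 57.4, 58.1 and 59.2 CPM in budesonide livers, 35.4, 32.5, 37.8 and 52.5 CPM in surfactant livers, and 36.2, 38.5, 37.7 and 33.0 CPM in unventilated livers. The budesonide values lay within 3 CPM of each other and above every other liver. PSMA6 rose by 0.69 (SE 0.15, adjusted p = 0.00254) against unventilated and by 0.57 (SE 0.15, adjusted p = 0.0299) against surfactant in edgeR, the second lost in 6 of 12 fits that left out a library, with an adjusted p of up to 0.0824.

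PSMA4, also of the outer ring, had 49.2, 40.1, 39.7 and 35.4 CPM in budesonide livers, 29.0, 22.7, 21.8 and 31.8 CPM in surfactant livers, and 37.5, 33.4, 40.1 and 31.7 CPM in unventilated livers. The surfactant livers were below all budesonide livers and touched the lowest unventilated one. It rose by 0.64 (SE 0.16, adjusted p = 0.025) for budesonide against surfactant and fell by 0.44 on the log2 scale (SE 0.16, adjusted p = 0.0463) for surfactant against unventilated, in edgeR. These results share the surfactant libraries, and single left-out libraries took the first call in 4 of 12 fits and the second in 8 of 12.

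PSMA5 and PSMA1 rose by 0.47 (adjusted p = 0.0228) and 0.38 (adjusted p = 0.047) for budesonide against unventilated, and PSMA2 rose by 0.49 (adjusted p = 0.0262) for surfactant against unventilated. Leaving out 1 library took these calls in 3, 10 and 4 of 12 fits, with an adjusted p of up to 0.0702, 0.109 and 0.104. PSMA3 and PSMA7 completed the ring without a call in liver. None of the 7 constitutive beta subunits was called in any liver comparison by edgeR, and their log2 changes lay between -0.34 and 0.32 in all 3. PSMB5, the chymotrypsin-like active site, averaged within -0.17 to 0.29 on the log2 scale, PSMB6, the caspase-like site, within -0.34 to 0.30, and PSMB7, the trypsin-like site, within -0.22 to 0.26.

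The assembly chaperones held the largest fall. PSMD5 (S5b), a chaperone of the cap's base that also restrains the joining of cap and core, had 15.4, 13.6, 13.7 and 12.2 CPM in budesonide livers, 24.1, 16.2, 7.89 and 7.82 CPM in surfactant livers, and 49.4, 43.2, 50.2 and 38.7 CPM in unventilated livers. The ventilated livers were all far below the unventilated ones, and within the surfactant group animal 007 was the highest. PSMD5 fell by 1.72 on the log2 scale (SE 0.31, adjusted p = 0.000721) for budesonide and by 1.70 (SE 0.31, adjusted p = 0.00121) for surfactant against unventilated in edgeR. Budesonide against surfactant gave -0.03 (SE 0.31, adjusted p = 0.961). Both calls were kept without any single library and were lost with age as a covariate, at -1.33 (adjusted p = 0.0588) and -1.36 (adjusted p = 0.0642).

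PSMD9 (p27), another chaperone of the base, had 49.6, 37.4, 51.7 and 36.2 CPM in budesonide livers, 38.0, 25.2, 23.2 and 23.2 CPM in surfactant livers, and 50.2, 46.9, 51.9 and 43.4 CPM in unventilated livers. Animal 007 alone brought the surfactant group up to the lowest budesonide values. PSMD9 fell by 0.81 on the log2 scale (SE 0.19, adjusted p = 0.00456 in edgeR) for surfactant against unventilated and rose by 0.68 (SE 0.19, adjusted p = 0.0354) for budesonide against surfactant, and these share the surfactant libraries. The second call was lost in 7 of 12 fits that left out a library, with an adjusted p of up to 0.0996. For budesonide against unventilated its change was -0.14 (SE 0.19, adjusted p = 0.569).

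Among the chaperones of the alpha ring, PSMG1 (PAC1) averaged 10.7 ± 1.33 CPM in budesonide livers, 8.79 ± 1.26 CPM in surfactant livers and 13.8 ± 1.5 CPM in unventilated livers, and fell by 0.65 on the log2 scale (SE 0.16, adjusted p = 0.00769 in edgeR) for surfactant against unventilated. Its obligate partner PSMG2 (PAC2) did not follow: it rose by 0.72 (SE 0.26, adjusted p = 0.0387) for budesonide against unventilated, a call lost in 9 of 12 fits that left out a library (adjusted p up to 0.105), and gave 0.37 (SE 0.26, adjusted p = 0.282) for surfactant against unventilated. PSMG4 (PAC4) averaged 7.48 ± 1.30 CPM in budesonide livers, 11.3 ± 2.55 CPM in surfactant livers and 7.40 ± 0.961 CPM in unventilated livers. It rose by 0.61 (SE 0.20, adjusted p = 0.0282) for surfactant against unventilated, a call lost in 5 of 12 such fits (adjusted p up to 0.101), and its change for budesonide against surfactant was -0.59 (adjusted p = 0.0723). Its partner PSMG3 (PAC3) and PSMD10 (gankyrin) were not called. A second row of the table, known only by a locus identifier, is named PSMD10 by the RefSeq gene reference, so the counts of PSMD10 are uncertain.

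Of the activators, PSME1 (PA28 alpha), the interferon-inducible cytosolic activator, had 38.2, 31.2, 25.8 and 35.5 CPM in budesonide livers, 32.7, 33.7, 33.4 and 49.6 CPM in surfactant livers, and 26.6, 23.8, 23.5 and 23 CPM in unventilated livers. It rose by 0.62 (SE 0.17, adjusted p = 0.0119 in edgeR) for surfactant against unventilated, where the groups did not overlap, and gave 0.43 (SE 0.17, adjusted p = 0.0533) for budesonide against unventilated, where they did. Its partner subunit PSME2 (PA28 beta), a near neighbour on the chromosome in the RefSeq reference, gave 0.16 (SE 0.19, adjusted p = 0.531) for surfactant against unventilated. PSME3 (PA28 gamma), the nuclear activator, averaged 76.1 ± 7.5 CPM in budesonide livers, 53.4 ± 12.9 CPM in surfactant livers and 48.4 ± 6.0 CPM in unventilated livers. It rose by 0.65 (SE 0.17, adjusted p = 0.0072) for budesonide against unventilated and gave 0.51 (SE 0.17, adjusted p = 0.0673) for budesonide against surfactant, which became a call in DESeq2 and without surfactant animal 051, the highest of its group at 72.5 CPM. PSME4 (PA200), a nuclear cap linked to acetylated histones, and the regulator PSMF1 were not called in liver. PSMF1 gave -0.43 (SE 0.17, adjusted p = 0.0537) for surfactant against unventilated.

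The inducible subunits had their highest group means in surfactant livers, as did several other members such as PSMG4 and PSME1, and of the inducible subunits PSMB8 was not called. PSMB9 (LMP2) had 2.62, 2.41, 1.75 and 3.47 CPM in budesonide livers, 3.28, 5.82, 8.61 and 6.84 CPM in surfactant livers, and 4.67, 4.52, 3.18 and 3.44 CPM in unventilated livers. The surfactant livers were above the budesonide ones except for animal 007. PSMB9 fell by 1.26 on the log2 scale (SE 0.30, adjusted p = 0.0204 in edgeR) for budesonide against surfactant, and the call was lost without budesonide animal 031, 048 or 050 or surfactant animal 049, with an adjusted p of up to 0.0634. It gave 0.63 (SE 0.30, adjusted p = 0.103) for surfactant against unventilated and -0.63 (SE 0.30, adjusted p = 0.106) for budesonide against unventilated.

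PSMB10 (MECL-1) had 9.60, 8.77, 7.62 and 13.2 CPM in budesonide livers, 8.78, 13.0, 16.3 and 16.3 CPM in surfactant livers, and 9.35, 8.67, 8.70 and 8.39 CPM in unventilated livers. The surfactant liver at the unventilated level was again animal 007. It rose by 0.63 (SE 0.22, adjusted p = 0.0351 in edgeR) for surfactant against unventilated, a call lost in 7 of 12 fits that left out a library (adjusted p up to 0.119), and gave -0.47 (SE 0.22, adjusted p = 0.168) for budesonide against surfactant. PSMB8 (LMP7) averaged 12.5 ± 3.60 CPM in budesonide livers, 16.2 ± 2.92 CPM in surfactant livers and 15.2 ± 4.53 CPM in unventilated livers, and none of its changes was called.

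Set against the constitutive subunit that each replaces, within the same library and without a test, the inducible subunits had their highest mean ratios in surfactant livers. Reads of PSMB9 per 100 reads of PSMB6 were 31.2 ± 4.42 in budesonide livers, 94.1 ± 37.8 in surfactant livers and 47.8 ± 8.17 in unventilated livers (SD, n = 4 each). The surfactant range, 50.4 to 142, overlapped the unventilated one, 36.2 to 55.0, through animal 007 at 50.4. Reads of PSMB10 per 100 of PSMB7 ranged from 30.8 to 42.0 in budesonide livers, from 52.1 to 72.1 in surfactant livers and from 32.1 to 38.2 in unventilated livers, so the surfactant group lay apart from both. For animal 007, at 52.1, this rested on PSMB7, which was the lowest of all livers at 16.8 CPM. Its PSMB10, at 8.78 CPM, lay within the unventilated range. Reads of PSMB8 per 100 of PSMB5 averaged 21.9 ± 7.34, 34.7 ± 8.27 and 28.5 ± 7.85 in budesonide, surfactant and unventilated livers, with overlapping ranges. These ratios depend on the length of each gene and are comparable between libraries only.

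**Figure D3:**
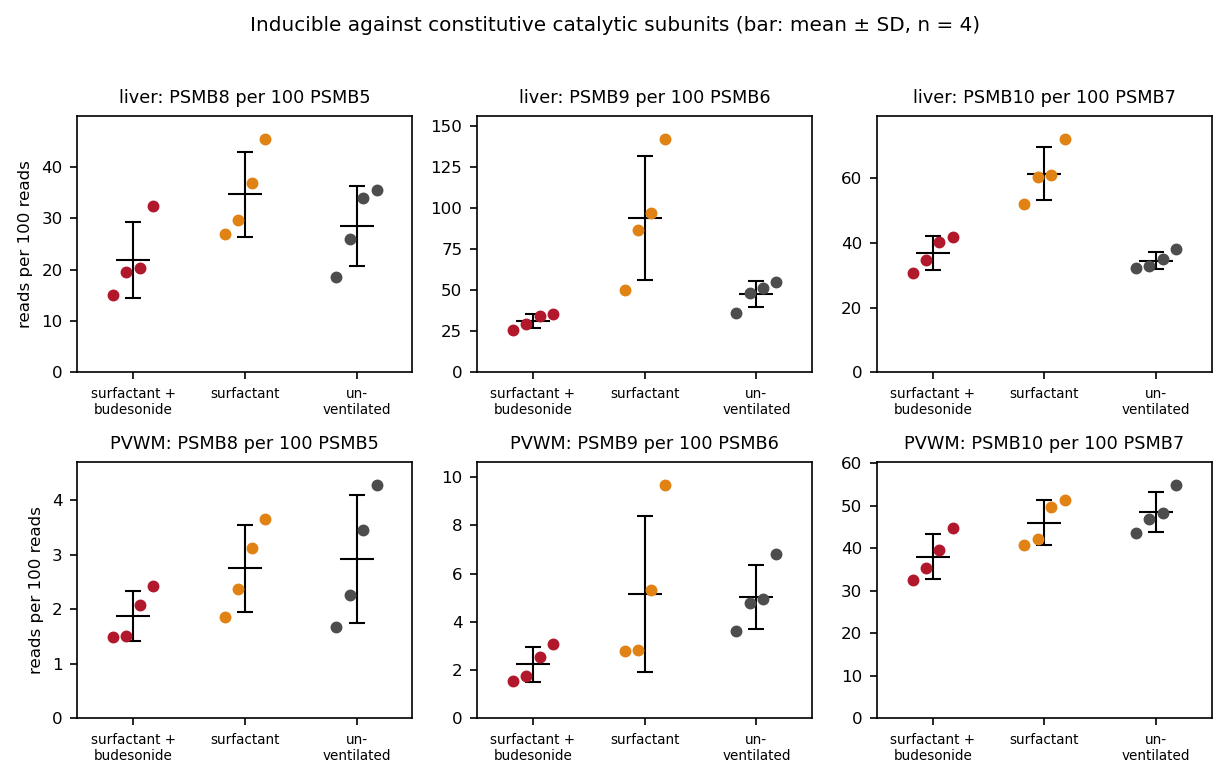
Points are single libraries by group, for liver (top) and PVWM (bottom), and give reads of an inducible subunit per 100 reads of the constitutive subunit it replaces (vertical axes from 0, scaled per panel), with mean and SD of 4 animals. In liver the PSMB10 ratios of surfactant animals, 52.1 to 72.1, lie above those of both other groups, and in PVWM the PSMB9 ratios lie under 10 in every library.

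Genes that share the class I pathway with the inducible subunits changed in the same livers. PSMB8, TAP1 and PSMB9 are neighbours in the RefSeq gene reference, and TAP1 encodes a chain of the peptide transporter. TAP1 had 22.9, 11, 17 and 23.1 CPM in budesonide livers, 23.4, 41.5, 102.7 and 70.1 CPM in surfactant livers, and 27.9, 31.9, 20.6 and 17.8 CPM in unventilated livers. TAP1 fell by 1.68 on the log2 scale (SE 0.40, adjusted p = 0.0191 in edgeR) for budesonide against surfactant, and rose by 1.28 (SE 0.39, adjusted p = 0.0209) for surfactant against unventilated. The first call was lost without budesonide animal 048 or surfactant animal 049 (adjusted p up to 0.0584), and the second without surfactant animal 049 or 051 or unventilated animal 059 or 060 (adjusted p up to 0.0969). NLRC5, the transactivator of class I genes, fell by 1.71 (SE 0.30, adjusted p = 0.00532) and rose by 1.55 (SE 0.30, adjusted p = 0.00162) in the same comparisons, and IRF1, an interferon-induced transcription factor, fell by 1.84 (SE 0.40, adjusted p = 0.0141) and rose by 2.21 (SE 0.41, adjusted p = 0.00131). IRF1 had 17.6, 15.3, 14.6 and 19.2 CPM in budesonide livers, 19.9, 31.4, 92.5 and 93.8 CPM in surfactant livers, and 11.7, 14.2, 13.2 and 12.1 CPM in unventilated livers, and the surfactant range was wide. Of 15 class I genes listed, 0 rose and 7 fell for budesonide against surfactant, where 7.85% of all genes were called lower, and 7 rose and 1 (the trimming peptidase ERAP2) fell for surfactant against unventilated, where 21.6% were called higher and 19.5% lower, with list medians of -0.59 and 0.46.

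Markers of other cell types were read in the same livers. The summed level of 14 leukocyte and macrophage markers was 382 to 493 CPM in budesonide livers, 423 to 677 CPM in surfactant livers and 284 to 354 CPM in unventilated livers. Of these markers 6 rose and 0 fell for surfactant against unventilated, where 21.6% of all genes were called higher and 19.5% lower. For budesonide against surfactant 0 rose and 1 (PTPRC) fell, where 4.01% of all genes were called higher and 7.85% lower. The 3 endothelial markers summed to 172 to 195 CPM in budesonide livers, 288 to 358 CPM in surfactant livers and 207 to 262 CPM in unventilated livers, and all 3 fell for budesonide against surfactant. No marker of either list was at 0 in any liver library. The part of these cells in the changes of PSMB9, PSMB10, PSME1 and the class I genes was not tested, and in whole tissue fewer cells of a type and less RNA per cell cannot be told apart.

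In the PVWM, no proteasome gene was called by edgeR in any comparison. The 48 members tested gave 0 calls for budesonide against surfactant, 0 for surfactant against unventilated and 0 for budesonide against unventilated, where 0.978%, 2.05% and 8.06% of 18616 genes were called. At an unadjusted p under 0.05 there were 2, 1 and 5 members, and DESeq2 called 0, 0 and 1, the last being PSMB9. The 31 constitutive subunits stayed within -0.19 and 0.23 on the log2 scale in all 3 comparisons, and the SD of their changes was 0.0789, 0.0615 and 0.0786, beside 0.226, 0.351 and 0.401 in liver. These SD include the error of each change, which was larger in liver. For budesonide against surfactant, non-ATPase cap subunits had SE of 0.131 to 0.274 in liver and 0.0699 to 0.111 in PVWM. More of all genes were also called in liver, at 11.9, 41.1 and 47.0% in the same order. PSMD6, for example, had 41.9, 45, 44.2 and 42.4 CPM in budesonide PVWM, 44.4, 42.9, 40.4 and 40.7 CPM in surfactant PVWM, and 37.1, 42.3, 42.8 and 44.6 CPM in unventilated PVWM. PSMD5 averaged 43.8 ± 3.29, 47.3 ± 5.22 and 48.1 ± 2.91 CPM in budesonide, surfactant and unventilated PVWM.

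The largest PVWM changes for budesonide were those of inducible subunits. PSMB9 had 0.407, 0.695, 0.404 and 0.566 CPM in budesonide PVWM, 0.849, 1.16, 2.43 and 0.749 CPM in surfactant PVWM, and 1.41, 1.28, 1.69 and 0.991 CPM in unventilated PVWM. Every budesonide value was below every value of the other groups, at counts low enough for wide errors. Ranges of budesonide PVWM lay apart for 7.60% of all genes against surfactant and 17.2% against unventilated. Its log2 change was -1.36 (SE 0.40, adjusted p = 0.0549) for budesonide against unventilated and -1.30 (SE 0.40, adjusted p = 0.171) for budesonide against surfactant in edgeR, and it was called against unventilated when surfactant animal 049 or 051 was left out. PSMB8 averaged 2.04 ± 0.443, 3.13 ± 0.762 and 3.37 ± 1.58 CPM in budesonide, surfactant and unventilated PVWM, with -0.72 (SE 0.32, adjusted p = 0.215) for budesonide against unventilated. PSMB10 had -0.27 (SE 0.12, adjusted p = 0.193) in the same comparison. The 3 microglia markers summed to 20.7 to 34.0 CPM in budesonide PVWM, 71.4 to 119 CPM in surfactant PVWM and 115 to 128 CPM in unventilated PVWM, with none at 0. All 3 fell for budesonide against surfactant and against unventilated, where 72 and 691 of 18616 genes were called lower. Of 12 leukocyte and macrophage markers tested, 1 fell and 0 rose against surfactant, and 0 of 3 endothelial markers were called. The part of any of these cells in the PSMB9 values was not tested.

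Whether a change differed between the tissues was tested directly in the 24 libraries, by subtracting the log2 change in PVWM from that in liver. For surfactant against unventilated, 10 of 48 members differed, 6 higher and 4 lower in liver, where 25.8% of 20010 genes were called, 14.6% higher and 11.2% lower. PSMD5 differed by -1.60 (SE 0.32, adjusted p = 0.000913), PSMD9 by -0.82, PSMC3 by -0.54 and PSMD13 by -0.47, and PSMD6 by 1.19, PSME1 by 0.87, PSMB10 by 0.70, PSMG4 by 0.62, PSMD12 by 0.56 and PSMD7 by 0.44, in edgeR. With the animal as a block, since liver and PVWM of 11 lambs were paired, 3 of the 10 passed: PSMD5 (-1.75, adjusted p = 0.00638), PSMD6 (1.11, adjusted p = 0.0273) and PSMD9 (-0.83, adjusted p = 0.02), while PSME1 had an adjusted p of 0.0515 and the other 6 had 0.0872 to 0.189. Unventilated animals 059 (liver only) and 061 (PVWM only) have no pair and add nothing to a blocked difference. The blocked fit therefore differs from the main one in pairing and in the libraries that inform it. Without the block, the 10 calls became 6 without liver surfactant animal 049, 5 without liver unventilated animal 057, 6 without liver unventilated animal 060 and 16 without liver surfactant animal 007, and 5 (PSMC3, PSMD5, PSMD6, PSMD9 and PSME1) were kept whichever library was left out. For budesonide against surfactant, edgeR found 0 members that differed between tissues, where 3.41% of genes were called. At an unadjusted p under 0.05 there were 12, DESeq2 called 2 (PSMD2 and PSMD7), and edgeR called 7 without liver surfactant animal 051 and 1 without liver surfactant animal 007.

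**Figure D4:**
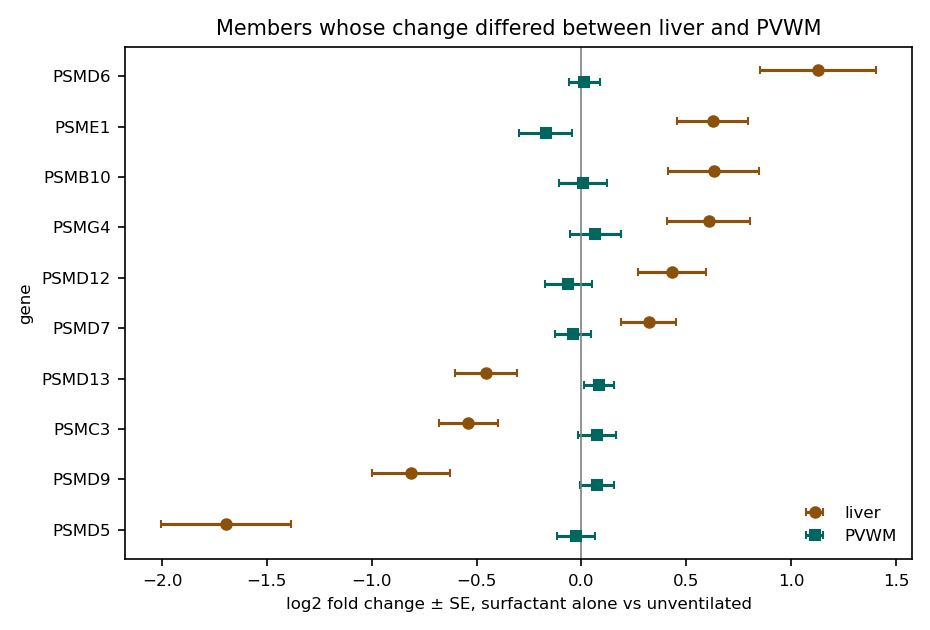
For the 10 proteasome genes whose change differed between tissues, the log2 fold change of surfactant alone against unventilated (horizontal axis) is given with its SE for liver (circles) and PVWM (squares). The PVWM values sit near 0 and the liver values lie on both sides, down to -1.70 for PSMD5 and up to 1.13 for PSMD6.

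Without treatment the tissues already differed. In unventilated lambs, 31 of 48 members differed between liver and PVWM, 22 higher and 9 lower in liver, where 77.9% of 20010 genes were called, 36.1% higher and 41.7% lower. Without PSMC3IP these were 30 of 47 members, 21 higher and 9 lower. On the shared scale of the 24 libraries, PSMB8 averaged 20 ± 6.43 CPM in liver and 2.57 ± 1.25 CPM in PVWM, a log2 difference of 2.96 (SE 0.31, adjusted p = 8.55e-09 in edgeR). PSMB9 averaged 5.21 ± 1.11 and 1.02 ± 0.221 CPM in liver and PVWM, a difference of 2.35 (SE 0.34, adjusted p = 1.75e-06). PSMB10 went the other way, at 11.5 ± 0.645 CPM in liver and 19.3 ± 2.35 CPM in PVWM, a difference of -0.74 (SE 0.18, adjusted p = 0.000705). PSME2 was higher in liver by 1.38 (adjusted p = 2.21e-07), as was the chaperone PSMD9 by 1.39 (adjusted p = 9.66e-09), and so was PSMC3IP, by 1.84 (adjusted p = 0.000126).

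Among the constitutive active sites, PSMB6 was lower in liver by 0.89 on the log2 scale (SE 0.14, adjusted p = 5.12e-06) and PSMB5 by 0.30 (adjusted p = 0.0235), and PSMB7 was not called. All 5 called alpha subunits were higher in liver, led by PSMA1 at 0.82 (adjusted p = 2.9e-06), whereas 4 of 6 called non-ATPase cap subunits were lower, led by PSMD1 at -0.81 (adjusted p = 1.09e-05) and PSMD8 at -0.55 (adjusted p = 0.00012). The animal block, to which unpaired animals 059 and 061 add nothing, left 22 of the 31 calls. It took those of PSMB1, PSMB3, PSMB4, PSMC3, PSMD3, PSMD10, PSMD14, PSMG3 and PSMG4 (adjusted p = 0.0655 to 0.261). All genes tested had a median log2 difference of -0.11, so these differences are relative to the scaling of 2 unlike tissues.

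Other genes that build, load or control the proteasome were read from lists. Of 15 partner genes, 5 rose and 3 fell for surfactant against unventilated, where 41.1% of all genes were called, and 4 rose and 3 fell for budesonide against unventilated, where 47.0% were called, so the counts lie near the share over all genes. ZFAND5, a stress-induced activator that binds the proteasome, averaged 1316 ± 586 CPM in budesonide livers, 675 ± 567 CPM in surfactant livers and 47.6 ± 9.15 CPM in unventilated livers, and rose by 4.79 (SE 0.54, adjusted p = 3.43e-05 in edgeR) for budesonide and by 3.83 (SE 0.52, adjusted p = 0.000199) for surfactant against unventilated. AKIRIN2, which brings proteasomes into the nucleus, averaged 27.0 ± 4.74, 24.3 ± 9.36 and 10.3 ± 0.392 CPM in budesonide, surfactant and unventilated livers, and rose by 1.40 and 1.24 (adjusted p = 0.000765 and 0.00229). POMP, the maturation factor of the core, rose by 0.84 (SE 0.27, adjusted p = 0.0269) for surfactant against unventilated, a call lost without surfactant animal 049 or 051 or unventilated animal 057, 058 or 060 (adjusted p up to 0.106). UBQLN4, a shuttle for ubiquitinated cargo, fell by 0.69 on the log2 scale (adjusted p = 0.00817).

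Of 13 genes of the supply and control list, 6 rose and 0 fell for surfactant against unventilated, where 21.6% of all genes were called higher and 19.5% lower, and 8 rose and 0 fell for budesonide against unventilated, where 23.3% were called higher and 23.7% lower. NFE2L1 itself was not called: it had 184, 159, 215 and 131 CPM in budesonide livers, 218, 131, 102 and 118 CPM in surfactant livers, and 165, 138, 177 and 162 CPM in unventilated livers, with a change of -0.17 (SE 0.23, adjusted p = 0.572) for surfactant against unventilated. The enzymes known to process its protein did rise. DDI2, the protease that cleaves it, averaged 912 ± 153, 1254.5 ± 346 and 237 ± 30.1 CPM in budesonide, surfactant and unventilated livers, and rose by 1.94 (adjusted p = 3.19e-05) and 2.40 (adjusted p = 1.46e-05) against unventilated. NGLY1, which removes its sugars, averaged 147 ± 17.8, 217 ± 28.2 and 75.5 ± 10.4 CPM, rose by 0.96 and 1.52 (adjusted p = 0.00032 and 2.88e-05) against unventilated and fell by 0.56 on the log2 scale (adjusted p = 0.034) for budesonide against surfactant. That fall was lost without budesonide animal 031, 048 or 050, surfactant animal 032 or 049 or unventilated animal 060 (adjusted p up to 0.101). VCP, the segregase that extracts it from the membrane, rose by 0.82 and 0.54 (adjusted p = 0.00158 and 0.0213). MAFF and MAFG, small partners of such factors, rose for surfactant against unventilated by 5.98 and 0.99 (adjusted p = 3.47e-05 and 0.000406); MAFF had only 0.412 to 1.21 CPM in unventilated livers. With age as a covariate, the surfactant calls of AKIRIN2, POMP, UBQLN4 and MAFG were lost (adjusted p = 0.0518 to 0.361), and those of ZFAND5, DDI2, NGLY1, VCP and MAFF were not.

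**Figure D5:**
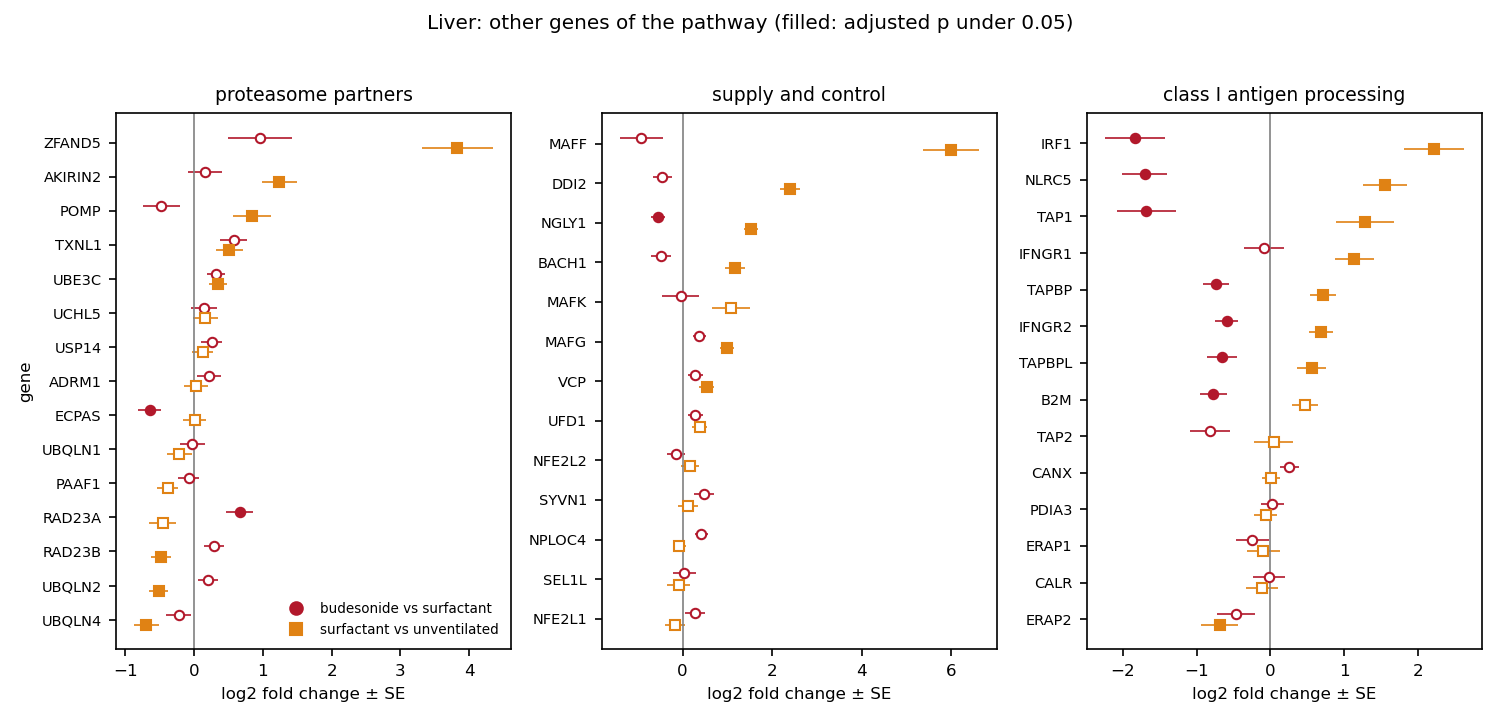
Liver log2 fold changes with SE (horizontal axes, scaled per panel) are shown for the reported genes of 3 lists, as circles for budesonide against surfactant and squares for surfactant against unventilated, filled where the adjusted p was under 0.05. The supply and control genes that were called for surfactant against unventilated all lie right of 0, NFE2L1 lies near 0, and the called class I genes lie right of 0 for that comparison, except ERAP2, and left of 0 for budesonide against surfactant.

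Of 6 ubiquitin and E1 genes, 3 rose and 0 fell in liver for surfactant against unventilated, where 21.6% of all genes were called higher and 19.5% lower. Among the 3 was RPS27A, which encodes ubiquitin fused to a ribosomal protein, with a rise of 0.67 (adjusted p = 0.00521 in edgeR). Ubiquitin genes are near copies of each other, so reads may be divided among them. In PVWM none of the partner genes was called in any comparison. Over all genes, 0.978% were called there for budesonide against surfactant, 2.05% for surfactant against unventilated and 8.06% for budesonide against unventilated, so few calls would be seen in a list this short. NFE2L2 (NRF2), a stress factor related to NFE2L1, averaged 112 ± 10.8, 88.0 ± 22.5 and 48.8 ± 2.53 CPM in budesonide, surfactant and unventilated PVWM, and rose by 1.19 (adjusted p = 0.000282) and 0.85 (adjusted p = 0.0108) against unventilated, the second lost with age as a covariate (adjusted p = 0.648) and with sex as a covariate in a fit that also left out unventilated animal 061, whose sex is not labelled (adjusted p = 0.136). TRIM63, a glucocorticoid-responsive ubiquitin ligase of muscle, rose by 2.87 (SE 0.64, adjusted p = 0.0145) in PVWM for budesonide against unventilated, a call lost with age as a covariate (adjusted p = 0.268) and in the same fit with sex and without animal 061 (adjusted p = 0.0838), while FBXO32, the other such ligase, was not called.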

How the data were processed

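The deposited tables hold whole-number counts per gene, not normalized, for 12 liver and 12 PVWM libraries. Per the submitters' processing notes, Bowtie2, featureCounts and edgeR were used; their versions, the strand setting and the genome build are not given in the sources used here. Members, roles, gene lists and tests were chosen with earlier results of these data known. Reported whatever their result were PSMB5 to PSMB10, PSME1 to PSME4, PSMF1, PSMD4, PSMD14, PSMC1 and PSMA1, with up to 6 called members per direction and comparison; other called members were named after their values were seen.

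In R 4.3.3, edgeR 4.0.16 (filterByExpr, trimmed mean of M values, robust quasi-likelihood fit of the 3 groups of a tissue) tested 16824 genes in liver and 18616 in PVWM. All 24 libraries in 1 fit, over 20010 genes, gave the tissue differences. SE is the absolute log2 change over the square root of F. The script was tested on simulated data. A number shared by a liver and a PVWM library marks 1 lamb: 11 pairs had residual correlations of 0.0795 to 0.251, and the animal was a block in an alternative fit. Other alternatives were median-ratio scaling, other count filters, DESeq2 1.42.0, age or sex as a covariate (with sex, PVWM animal 061, whose sex is not labelled, was left out), 2-group fits, each library left out, and, added after seeing the data, 126-day females only for budesonide against surfactant. Within a tissue, p-values judge a change against the spread between animals. The fit of 24 libraries without the block treated the liver and PVWM libraries of a lamb as independent. All 49 symbols were in the RefSeq gene reference (ARS-UI_Ramb_v3.0), used for names and neighbours only. DDI2, VCP and others carried as locus identifiers were named through it. Some listed genes are counted with their list and are not reported here.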

Additional observations from a re-analysis of the deposited data

Results flagged for a closer look

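In 13 of 222 groups of 4 libraries, the highest or lowest library stood apart from the other 3 by Dixon's test, where chance flags about 1 in 20. In surfactant livers, animal 051 was highest for PSMD12 (96.0 CPM, the next at 62.8), PSME1 (49.6, the next at 33.7) and PSME3 (72.5, the next at 49.8), and lowest for PSME4 (36.6, the next at 47.4), and animal 007 was highest for PSMD9 (38.0, the next at 25.2). In budesonide livers, animal 054 was lowest for PSME3 (64.9, the next at 78.1). In unventilated livers, animal 060 was lowest for PSMB7 (22) and PSMG2 (6.88), animal 059 highest for PSMC3 (54.2) and animal 058 highest for PSME4 (53.0). In PVWM, surfactant animal 032 was lowest for PSMA1 (21.3), unventilated animal 057 lowest for PSMD14 (13.9) and unventilated animal 061 highest for PSMD5 (52.4).

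The change for surfactant against unventilated differed between liver and PVWM, by edgeR's test of the difference, for 10 members: PSMD6 (1.19), PSME1 (0.87), PSMB10 (0.70), PSMG4 (0.62), PSMD12 (0.56), PSMD7 (0.44), PSMD13 (-0.47), PSMC3 (-0.54), PSMD9 (-0.82) and PSMD5 (-1.60), as log2 liver change minus PVWM change. Among other genes of the pathway it differed for MAFF (4.45), ZFAND5 (3.73), DDI2 (2.23), NLRC5 (2.05), NGLY1 (1.70), TAP1 (1.5), AKIRIN2 (1.34), MAFG (1.29), IFNGR2 (0.82), TAPBP (0.73), RPS27A (0.70), UBE3C (0.56), RAD23B (-0.55) and ERAP2 (-1.07). These are the called genes of smallest p in each list, beside genes named whatever their result, and not every called gene. Of 13 supply and control genes, for example, 7 were called higher in this test. The change for budesonide against surfactant differed for ECPAS, a scaffold that holds cap and core together, by -0.74.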

How the results depend on the processing

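Of 55 member results that were named and called, 16 kept the call under every alternative, 39 lost it under at least 1 and 0 reversed; of 124 not called, 17 gained a call under at least 1. For the other named genes, 44 of 83 calls were kept and 39 lost, 0 reversed, and 9 of 41 results that were not called gained one. With gestational age as a covariate the members called numbered 0 for liver surfactant against unventilated and 1 for liver budesonide against unventilated. Fitting only the 2 groups compared gave 1 for liver budesonide against surfactant and 1 for PVWM budesonide against unventilated, where DESeq2 also gave 1. DESeq2 gave 2 for the tissue difference of budesonide against surfactant. For the tissue difference of surfactant against unventilated, no filter on low counts gave 6 and the replicate block gave 3; the block also changed the all-gene count for budesonide against surfactant to 428 (from 683), left 22 calls between unventilated tissues, and changed no other count of members by over 1.5 times.

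Leaving out each library in turn, member calls in liver ranged from 1 to 11 for budesonide against surfactant, from 6 to 18 for surfactant against unventilated and from 10 to 19 for budesonide against unventilated. In PVWM they ranged from 0 to 0, 0 to 1 and 0 to 1 in the same order. For the tissue differences they ranged from 0 to 7 for budesonide against surfactant and from 5 to 16 for surfactant against unventilated, and between unventilated tissues from 24 to 33. The median log2 change of the members turned negative without liver surfactant animal 051, to -0.0634 for liver surfactant against unventilated (highest 0.0828) and to -0.00453 for its tissue difference (highest 0.187). Restricting liver budesonide against surfactant to 126-day females gave 7 calls, 4 higher and 3 lower, of which 5 were among the original 7.

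Counts over all genes moved too. For liver budesonide against surfactant the 1994 calls became 3135 in DESeq2, 884 in 2-group fits, 2998 in 126-day females and 1007 to 2838 with a library left out. With age, 1398 and 2958 genes were called for surfactant and budesonide against unventilated livers. In PVWM the counts of 182, 382 and 1501 became 80, 97 and 668 with sex in a fit that also left out unventilated animal 061, without which alone 173 were called for surfactant against unventilated, and DESeq2 gave 548 and 821 for the first 2. The causes were not tested. With 4 animals a group and SE of 0.12 to 0.31 for most liver members, log2 changes well above the SE could also go uncalled. An example was PSME3 at 0.51 for liver budesonide against surfactant (adjusted p = 0.0673 in edgeR).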

Other observations

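Within 1 ring, called members could differ in direction in liver. For budesonide against unventilated, in the ATPase ring PSMC1, PSMC2 and PSMC5 rose while PSMC3 fell by 0.54 on the log2 scale. In the alpha ring, all 7 changes were positive in that comparison and 3 passed.

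Surfactant livers differed among themselves in PSMD5 and IRF1. PSMD5 was at 24.1 and 16.2 CPM in animals 007 and 032 and at 7.89 and 7.82 CPM in animals 049 and 051, whereas IRF1 was at 19.9 and 31.4 CPM in the first pair and at 92.5 and 93.8 CPM in the second. Such differences were not particular to these genes. On the first principal component of all liver genes, animals 007, 032, 049 and 051 lay at 12.9, -35.4, -54.9 and -80.4. A link between PSMD5 and IRF1 was not tested.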
